A study of Mus musculus with 2 samples.

Results

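The fatty acid synthesis core is a set of 9 genes out of the 50608 rows of the deposited gene table, chosen by gene symbol for their place on the route from mitochondrial citrate to palmitate. All 9 symbols had a row. They are Slc25a1, Acly, Acss2, Me1, Acaca, Acacb, Fasn, Mid1ip1 and Thrsp. RNA was sequenced from cells labelled as peritoneal macrophages, phagocytes of the abdominal cavity, in 2 libraries. One library came from cells given the solvent DMSO and the other from cells treated with GW3965, a compound made to activate the liver X receptors (LXRs). The cells of both libraries are labelled as strain C57BL6J, pooled over male and female, at stage E15.5, and the sources used here do not give the dose or the duration of treatment. Of the 2 value columns, the one taken for GW3965 shares only the first letters of its name with that sample's description, and all values given for GW3965 depend on this match. Each group has 1 library, so differences are given without a replicate check or a test.

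Fatty acids are built in the cytosol from acetyl-CoA. Citrate leaves the mitochondrion, is cleaved to acetyl-CoA, and acetyl-CoA is carboxylated to malonyl-CoA, which fatty acid synthase condenses into palmitate with NADPH as the reductant. LXRs are nuclear receptors for oxidised sterols that bind DNA with the retinoid X receptor, and they are known to drive the gene of the lipogenic factor SREBP-1c and some lipogenic genes directly, in liver and in macrophages. Synthesis from acetyl-CoA is best known from liver and adipose tissue, and macrophages use it to make membrane and signalling lipids.

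The 250 bases upstream of the RefSeq start are shown for 3 members because these genes stood at different points of the response, with Fasn at the largest ratio, Acly just short of the limit used here and Slc25a1 at the ratio of the typical row. Each of these windows ends where the GENCODE M21 gene begins, although the RefSeq span of Fasn reaches further upstream. Sequences are from RefSeq on GRCm38.p6, read 5′ to 3′ towards the gene, and capitals mark a CCAAT box (CCAAT), a GC box (GGGCGG) or an E-box (CACGTG) on either strand. The Fasn window is chr11:120824548-120824797 on the minus strand, the Acly window chr11:100528001-100528250 on the minus strand and the Slc25a1 window chr16:17928220-17928469 on the minus strand.
Fasn: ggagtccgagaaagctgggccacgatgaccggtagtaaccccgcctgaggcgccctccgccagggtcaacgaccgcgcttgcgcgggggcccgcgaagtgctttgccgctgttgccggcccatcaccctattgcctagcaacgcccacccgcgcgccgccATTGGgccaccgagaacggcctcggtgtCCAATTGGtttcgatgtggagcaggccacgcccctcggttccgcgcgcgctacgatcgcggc
Acly: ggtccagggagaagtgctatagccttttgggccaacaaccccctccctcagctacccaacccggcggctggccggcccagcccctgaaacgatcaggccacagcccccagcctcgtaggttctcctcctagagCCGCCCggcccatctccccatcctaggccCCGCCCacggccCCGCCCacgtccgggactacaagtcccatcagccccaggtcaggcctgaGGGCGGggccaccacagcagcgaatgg
Slc25a1: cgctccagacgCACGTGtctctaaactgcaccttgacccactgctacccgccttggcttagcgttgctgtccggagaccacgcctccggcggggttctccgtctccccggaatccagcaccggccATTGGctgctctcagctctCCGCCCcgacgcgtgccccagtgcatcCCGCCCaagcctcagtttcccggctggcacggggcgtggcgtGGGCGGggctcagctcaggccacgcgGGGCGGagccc
The Fasn window held 3 CCAAT matches, beginning 90, 62 and 59 bases before the start, and the last 2 of these overlap on opposite strands. It held no GC box by these letters. The Acly window held 4 GC boxes and no CCAAT box, and the Slc25a1 window held 4 GC boxes, 1 CCAAT box and 1 E-box. Among 32851 RefSeq windows of the same length, 33.8% held a CCAAT box, 32.7% a GC box and 6.02% an E-box. The SREBP core TCACNCCAC, present in 1.05% of windows, and a direct repeat of the LXR-binding hexamer core GGTCA with 5 bases between its copies, present in 0.0639%, had no match in any of the 10 windows of the 9 members. These matches describe letters in a short window only. The RefSeq windows of Acaca, Acacb and Mid1ip1 and a window of Me1 lie inside the GENCODE M21 gene, upstream of an internal start. A lack of matches in them does not cover the bases upstream of the gene. Windows of Acss2 and Thrsp and the other Me1 window overlap the gene in part. None of these windows is shown.

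Values are FPKM, fragments per kilobase of gene scaled to sequencing depth. Levels of different genes can be compared only as far as the gene lengths behind the values hold, and the sources do not state these lengths. The reads behind each value were worked back from ratios of low deposited values and from annotated exon lengths. The depths reached were 101866062 reads for DMSO and 75287119 for GW3965. Depths of simulated data were returned to within 2 reads, which does not give the error in these libraries. Where several whole numbers of reads fitted, the smallest was used, which gives the widest interval. Ratios are GW3965 FPKM over DMSO FPKM with an exact 95% interval that covers counting error only and not the spread between mice or cultures. Log2 ratios were taken after adding 1 FPKM to each value, which understates the change of low genes. A row counted as measured at a mean of at least 1 FPKM and was called higher or lower when that scale showed at least 1.5-fold. Over the 11889 measured rows this log2 ratio had a median of 0.24, and values with the median subtracted are called centred. Of 10 macrophage markers 8 were measured, 1 of them higher and 0 lower with or without centring. The higher one was the engulfment receptor Mertk, with a ratio of 2.05 and a centred log2 ratio of 0.69. Lyz2 had 4052 FPKM in DMSO against 4822 in GW3965. Csf1r and Cd68 had log2 ratios of -0.015 and 0.018, or -0.26 and -0.23 after centring. The other measured markers had centred log2 ratios of 0.29 (Fcgr1), 0.16 (Mpeg1), 0.04 (Adgre1) and -0.05 (Itgam). The 2 markers that were not measured are those of resident peritoneal macrophages, Gata6 at 0.607 and 0.618 FPKM and Icam2 at 0.413 and 0.456 FPKM.

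Of the 9 members, 6 were measured, each above 1 FPKM in both libraries, and 3 were not. Among the 6 measured members, 4 (Fasn, Mid1ip1, Acaca and Acss2) were higher in GW3965, against 3.46% of all measured rows, and 0 were lower, against 0.0757%. After centring 3 were higher (Fasn, Mid1ip1 and Acaca), against 1.38% of all measured rows, and 0 were lower, against 0.336%. The median log2 ratio of the 6 was 0.83, against 0.24 over all measured rows. After centring, which sets the median of all measured rows to 0, it was 0.58. The FPKM of the 9 members summed to 73.1 in DMSO and 154 in GW3965, giving a ratio of 2.10, or 1.73 without Fasn.

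**Figure D1:**
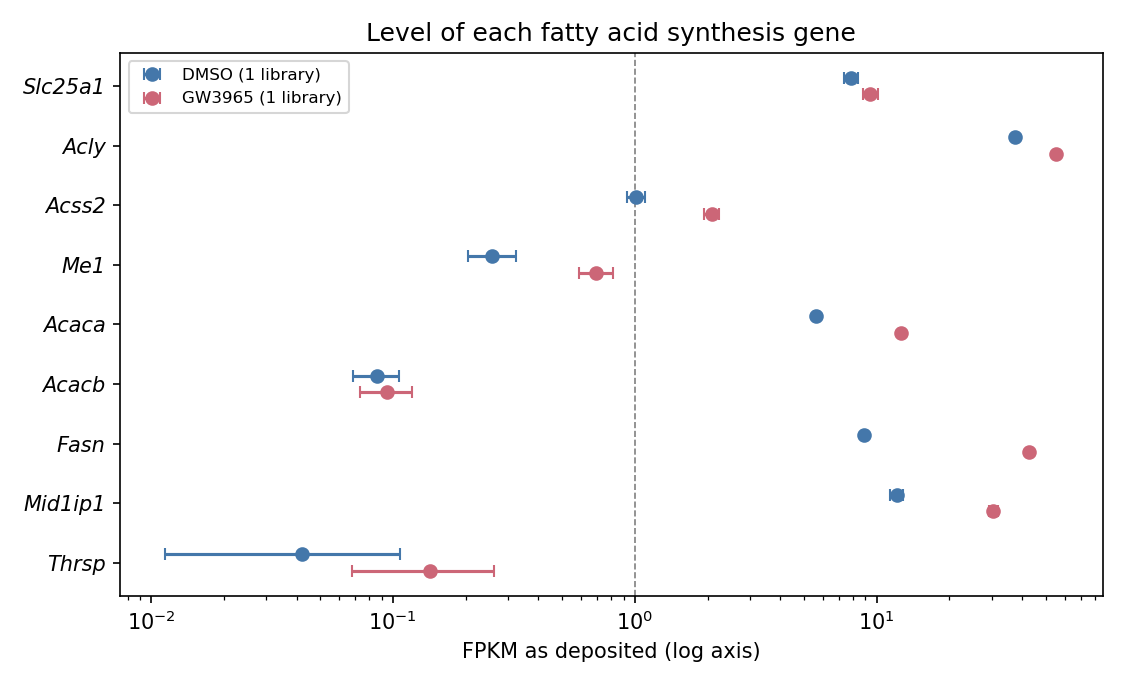
FPKM of each of the 9 genes in the DMSO and GW3965 libraries on a log axis. Points are single libraries, bars are exact 95% counting intervals, and the dashed line marks 1 FPKM. Fasn moves from 8.90 to 42.9 FPKM, whereas the intervals of Acacb overlap almost fully.

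Fasn, the multifunctional enzyme that assembles palmitate, showed the largest ratio of the 9. It had 8.90 FPKM in DMSO (counting interval 8.71 to 9.10) and 42.9 FPKM in GW3965 (42.4 to 43.4), from 7967 and 28356 reads. The ratio was 4.82 (4.70 to 4.94) and the log2 ratio 2.15, or 1.90 after centring. Fasn was number 9 of the 11889 measured rows by log2 ratio and number 5 of the 8710 measured protein-coding rows. Fasn lies on chromosome 11 from 120805846 to 120824547, minus strand, of GRCm38, as a protein-coding gene. Its share of the summed FPKM of the 9 members went from 12.2% to 27.9%.

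Acaca encodes the cytosolic acetyl-CoA carboxylase, which makes the malonyl-CoA used by Fasn. It had 5.63 FPKM in DMSO (5.49 to 5.78) and 12.6 in GW3965 (12.4 to 12.9), giving a ratio of 2.24 (2.17 to 2.32) from 6043 and 10020 reads. Its log2 ratio was 1.04, or 0.80 after centring. Acaca spans 84129672 to 84401651 on the plus strand of chromosome 11, the chromosome that also carries Fasn and Acly.

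Acacb, the paralogue whose protein sits on the mitochondrial surface and whose malonyl-CoA restrains fatty acid oxidation, was nearly absent. It had 0.0857 FPKM in DMSO (0.0682 to 0.106) and 0.0948 in GW3965 (0.0735 to 0.120), from 82 and 67 reads. The ratio of 1.11 had an interval of 0.788 to 1.55, so no difference was detectable at this depth, and centring turned the sign of its log2 ratio, from 0.01 to -0.23. Acaca stood 65.7 times above Acacb in DMSO and 133 times above it in GW3965. The sources used here do not say how reads matching both paralogues were counted.

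Mid1ip1 encodes a small protein that promotes polymerisation and activity of acetyl-CoA carboxylase. It had 12.1 FPKM in DMSO (11.4 to 12.9) and 30.4 in GW3965 (29.0 to 31.8), giving a ratio of 2.50 (2.32 to 2.70). The log2 ratio was 1.26, or 1.01 after centring. Relative to Acaca, the level of Mid1ip1 was similar in the libraries, at 2.16 times Acaca in DMSO and 2.40 times in GW3965. Mid1ip1 lies on the X chromosome from 10715013 to 10719690, plus strand, and its exons overlap the antisense gene Gm14493 by up to 445 bases, so without strand information reads of this pair cannot be told apart.

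Thrsp, the paralogue of Mid1ip1 known as Spot 14 and abundant in lipogenic liver and fat, was close to the limit of the libraries. It had 0.0419 FPKM in DMSO and 0.142 in GW3965, which correspond to as few as 4 and 10 reads. The ratio of 3.38 had an interval of 0.976 to 14.8, and the log2 ratio went from 0.13 to -0.11 on centring. Mid1ip1 stood 290 times above Thrsp in DMSO and 214 times above it in GW3965.

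Of the genes that supply citrate and acetyl-CoA, Acly and Slc25a1 had ratios below that of Acaca by more than counting error, whereas the interval of Acss2 overlapped that of Acaca. Acly, ATP citrate lyase, cleaves cytosolic citrate to acetyl-CoA and was the most abundant member in both libraries. It had 37.2 FPKM in DMSO (36.7 to 37.7) and 55.4 in GW3965 (54.7 to 56.2), giving a ratio of 1.49 (1.46 to 1.52) from 19681 and 21678 reads. Its log2 ratio of 0.56 was just under the 1.5-fold limit of 0.58, and the centred value was 0.32. Acly lies on chromosome 11 from 100476353 to 100528000, minus strand.

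Acss2, the cytosolic synthetase that makes acetyl-CoA from acetate, was present at low level. It had 1.02 FPKM in DMSO (0.932 to 1.11) and 2.08 in GW3965 (1.94 to 2.23), giving a ratio of 2.05 (1.83 to 2.29). Its log2 ratio was 0.61, past the limit, but the centred value of 0.37 was below it. Acly exceeded Acss2 by 36.6 times in DMSO and 26.7 times in GW3965. Annotated exons of Acss2, on chromosome 2 from 155517948 to 155585724, plus strand, overlap exons of Acss2os, Ggt7 and Gss on the opposite strand, by up to 222, 197 and 163 bases. The antisense gene Acss2os has no value used here. Ggt7 had 0.0716 FPKM in DMSO and 0.176 in GW3965, and Gss 1.21 and 1.65 FPKM. Without strand information, reads in the shared parts cannot be told apart.

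Slc25a1, the mitochondrial citrate carrier, stood at the ratio of the typical row. It had 7.84 FPKM in DMSO (7.34 to 8.38) and 9.44 in GW3965 (8.79 to 10.1), giving a ratio of 1.20 (1.09 to 1.33). The log2 ratio was 0.24, and its sign turned on centring, which gave a value that rounded to 0.00 from below. Among protein-coding rows within 1.5-fold of its mean level the median ratio was 1.22. Slc25a1 lies on chromosome 16 from 17925223 to 17928219, minus strand.

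Me1, the cytosolic malic enzyme that yields NADPH, was below the limit for a measured row. It had 0.258 FPKM in DMSO (0.204 to 0.322) and 0.693 in GW3965 (0.588 to 0.811), from 78 and 155 reads. The ratio was 2.69 (2.04 to 3.58), while with 1 FPKM added the log2 ratio was only 0.43. Its exons overlap the antisense gene A330041J22Rik by up to 30 bases. Some other NADPH sources were far more abundant. Idh1 stood 173 times above Me1 in DMSO and 115 times in GW3965, and G6pdx 164 and 93.0 times. Aldh1l1 was nearer to Me1, at 1.61 and 1.75 FPKM, and Me3 lay below it, at 0.0229 and 0.0725 FPKM.

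Ratios were also set against protein-coding rows within 1.5-fold of each member's mean level, because rows of very low level tended to have higher ratios in GW3965. Around Me1, 1005 such rows had a median ratio of 1.25, with a 5th to 95th percentile range of 0.855 to 1.80, below the 2.69 of Me1. The 2889 rows around Thrsp had a median of 1.80 and a range of 0.859 to 5.41, which holds the 3.38 of Thrsp. Acacb, at 1.11, lay below the median of 1.80 of its 2948 rows. For the measured members the upper end of this range was 1.498 around Fasn, 1.51 around Mid1ip1, 1.48 around Acaca and 1.58 around Acss2, each below the ratio of the gene itself. Acly, at 1.49, lay just under the 1.51 of its 434 rows.

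**Figure D2:**
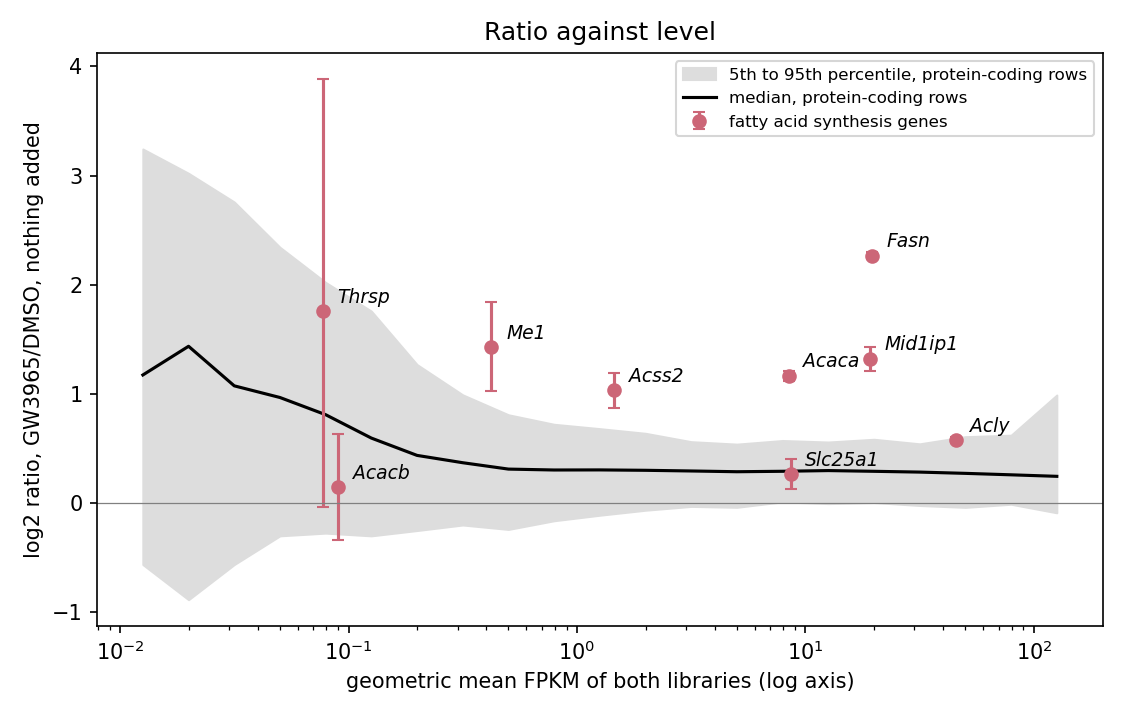
Log2 ratio of GW3965 over DMSO with nothing added (vertical) against the geometric mean FPKM of both libraries (log axis). The line and the grey band give the median and the 5th to 95th percentile of protein-coding rows in bins of level, and points are the 9 genes with exact 95% counting intervals. Fasn, Mid1ip1, Acaca, Acss2 and Me1 lie above the band, Slc25a1 lies near the line, and Thrsp and Acacb fall inside the wide band of low rows.

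The balance of levels along the route differed between the libraries. In DMSO the order from high to low was Acly, Mid1ip1, Fasn, Slc25a1, Acaca, Acss2, Me1, Acacb and Thrsp. In GW3965 Fasn stood above Mid1ip1, Acaca above Slc25a1, and Thrsp above Acacb, with the rest of the order as in DMSO. Counting intervals of neighbours in this order overlapped only for Acacb and Thrsp, in both libraries. Fasn had 0.239 times the level of Acly in DMSO and 0.773 times in GW3965. Relative to Acaca, Fasn went from 1.58 to 3.39 times, and relative to Slc25a1 from 1.13 to 4.54 times. The share of Acly in the summed FPKM of the 9 went from 50.9% to 36.1%, although its own level was higher in GW3965.

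By the pair of log2 levels in the 2 libraries, the protein-coding rows nearest to Fasn were Cfp (11.6 FPKM in DMSO and 42.1 in GW3965), Srebf1 (8.74 and 33.0 FPKM) and Lpcat3 (9.69 and 30.7 FPKM), at distances of 0.35, 0.37 and 0.48. Cfp is properdin of the complement system, Srebf1 encodes the SREBP-1 factors, and Lpcat3 puts polyunsaturated acyl chains into phospholipids. Nearest to Acly were Insig1 (37.2 and 55.8 FPKM, distance 0.01), which retains SREBP proteins in the endoplasmic reticulum, then Emb and Serpinb6a. Acaca was nearest to Pfkfb4, Lpin1 and Fmn1, the first of these with 5.71 and 11.5 FPKM. Likeness over 2 libraries describes a pair of levels only.

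Genes around the core were read from 6 lists with 87 genes, of which 71 were measured. Of these, 8 (11.3%) passed the limit upwards and 0 downwards, against 3.46% and 0.0757% of all measured rows. Centring left 5 and 0, against 1.38% and 0.336%. The median log2 ratio over the 71 was 0.30 (centred, 0.05). The shares of all measured rows also apply to the counts of each list below, markers included. Lists with 0 higher, and the transcription factors with 1 of 19, stood near them. Enzymes and carriers that supply citrate (12 measured) had 0 higher and 0 lower. Citrate synthase (Cs) had 41.7 FPKM in DMSO and 54.5 in GW3965, and the malate dehydrogenase Mdh1 had 29.5 and 39.8 FPKM, with centred log2 ratios of 0.13 and 0.18. Pdha1 and Pdhb, subunits of the pyruvate dehydrogenase that makes mitochondrial acetyl-CoA, had centred log2 ratios of 0.12 and 0.10.

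Other enzymes of acetyl-CoA, malonyl-CoA and acyl carrier protein (10 measured) also had 0 higher and 0 lower. The largest log2 ratios were 0.37 for Aasdhppt, which attaches the pantetheine arm of the acyl carrier, 0.35 for Acss1, the mitochondrial counterpart of Acss2, 0.31 for the mitochondrial synthase Oxsm and 0.28 for Ndufab1, the mitochondrial acyl carrier protein.

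Of the 9 measured NADPH sources, 3 were higher and 0 lower, and none was higher after centring. Idh1, the cytosolic isocitrate dehydrogenase, had 44.5 FPKM in DMSO and 79.3 in GW3965, giving a ratio of 1.78 (1.74 to 1.83), and its centred log2 ratio, 0.58, was just short of the limit. G6pdx, the entry enzyme of the pentose phosphate route, showed a ratio of 1.53 (1.43 to 1.63) and the mitochondrial malic enzyme Me2 one of 1.61 (1.48 to 1.75). Pgd had 28.3 and 37.9 FPKM.

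Kinase subunits and other genes that act on acetyl-CoA carboxylase or on Acly (8 measured) had 0 higher and 0 lower. Prkag1 and Prkab2, subunits of the AMP-activated kinase that inactivates the carboxylases, had log2 ratios of 0.40 and 0.39, Cop1 had 0.37 and Prkaa1 0.37.

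Of 19 measured transcription factors and SREBP escort genes, 1 was higher and 0 lower, with or without centring. That gene was Srebf1, with 8.74 FPKM in DMSO and 33.0 in GW3965, giving a ratio of 3.77 (3.65 to 3.90). The next largest log2 ratios, each short of the limit, were 0.57 for Insig1, 0.56 for Mbtps2, a protease that releases SREBPs, and 0.41 for Insig2. With nothing added to the FPKM, the ratios of these 3 genes were 1.497, 1.55 and 1.40. Of 2 further factors named after their values were seen, Mlxipl, the carbohydrate response factor ChREBP, was not measured, at 0.0302 FPKM in DMSO and 0.0522 in GW3965. The other, Srebf2, the paralogue tied to cholesterol synthesis, had 18.1 and 18.4 FPKM, and its log2 ratio was -0.22 after centring.

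Enzymes that desaturate or lengthen fatty acids, not only the product of Fasn, had 13 measured genes, 4 of them higher and 0 lower, with or without centring. Scd1 had a ratio of 8.62 (8.40 to 8.83), Scd2 one of 5.38 (5.27 to 5.48), Fads2 one of 4.05 (3.75 to 4.38) and Elovl5 one of 2.06 (1.98 to 2.14). Elovl6, which lengthens palmitate and was named after its value was seen, went from 1.28 to 2.26 FPKM, a log2 ratio of 0.51 that fell short of the limit.

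**Figure D3:**
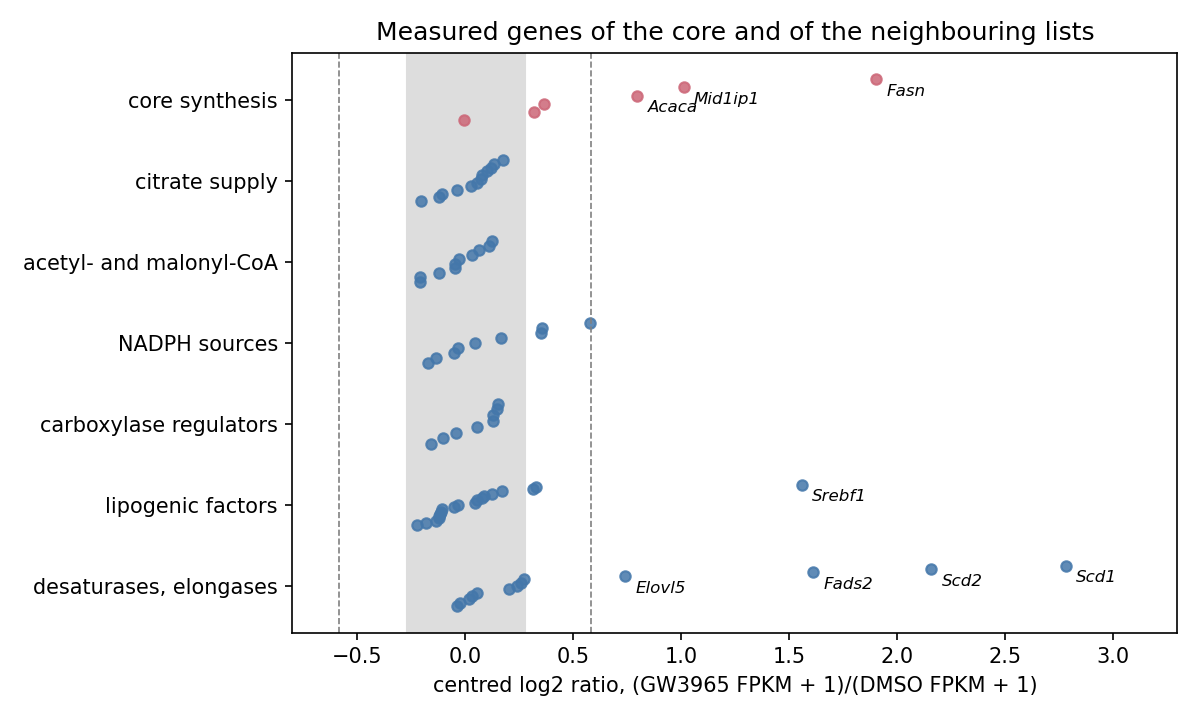
Centred log2 ratios of the measured genes of the core (red) and of the 6 lists around it (blue), 1 point per gene. The grey band is the 5th to 95th percentile of all measured rows, -0.27 to 0.28, and dashed lines mark 1.5-fold. Points past the line are Fasn, Mid1ip1 and Acaca in the core, Srebf1 among the factors, and Scd1, Scd2, Fads2 and Elovl5 among desaturases and elongases.

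Markers of other cells that synthesise or store fat were low. In bulk RNA, fewer cells of a type and less RNA per cell cannot be told apart. Of 10 adipocyte markers 2 were measured, Fabp4, which macrophages also express, at 26.5 FPKM (DMSO) against 25.6 (GW3965), and Lipe at 1.03 and 1.14 FPKM. The other 8, among them Adipoq, Lep and Plin1, were each at or below 0.0749 FPKM in DMSO and 0.124 in GW3965, and 0 of them were at 0. All 8 hepatocyte markers were below 0.2 FPKM in both libraries and summed to 0.256 FPKM in DMSO and 0.657 in GW3965. The 12 mesothelial and stromal markers, 6 of them measured and none at 0, summed to 20.01 and 29.93 FPKM, and their median log2 ratio was 0.38, or 0.13 centred. Of the 6, Dcn was higher by at least 1.5-fold (6.91 and 11.6 FPKM, log2 ratio 0.67), none was lower, and none was past the limit after centring. Upk3b went from 1.38 to 2.51 FPKM. B cell markers (9 listed, 4 measured, none at 0) summed to 20.3 and 77.7 FPKM, and the 1 higher by at least 1.5-fold was Ighm, which gave 9.26 and 64.4 of these. Markers of T and NK cells, apart from Il7r (187 and 234 FPKM), and 5 of the 8 neutrophil markers were below 0.2 FPKM in both libraries. The remaining neutrophil markers were S100a8 (3.29 FPKM in DMSO and 3.60 in GW3965), Mmp8 (2.68 and 3.03) and Camp (0.119 and 0.323). The part of these cells in the values of the 9 genes was not tested.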

How the data were processed

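The 2 libraries, 1 for DMSO and 1 for GW3965, hold RNA of peritoneal macrophages. Kits from Qiagen (extraction) and Illumina (TruSeq library preparation) were used, per the labels' protocols. The authors deposited FPKM values per gene. The submitters' processing notes name STAR 2.3.0, HTSeq 0.5.4p3 and GRCm38 (mm10). The annotation, strand setting and handling of reads with several matches are not stated there or in the labels.

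Relative depth was recovered from ratios of low values, of which 96.2% were ratios of whole reads within rounding, against 0.551% for a factor 1% away. Exon lengths of GENCODE M21, reduced by 99 bases, set the scale. Of 10818 low rows with an annotated length, 327 gave 1 depth, and the runner-up reduction had 108. In 150 sampled rows 99.3% then gave whole reads at a whole length, against 1.33% at a depth 0.0001% away. The final depth was chosen on these same rows, so the 99.3% is not an independent check. On simulated data, 98.7% of 1197 genes returned the simulated reads or a divisor of them, and 82.2% the reads themselves. The simulation fixed in advance the share of rows that kept their annotated length. That share is not known for these data, so the simulation does not check the scale set here. Lengths and reads of the 9 genes come from this step, and a whole multiple of them is not excluded. For Fasn, Acaca and Acacb only 1 length fitted, but a multiple of it would lie past the longest length searched.

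The members and all gene lists were chosen with earlier results of these data known. Named genes are all 9 members, from each other list the measured genes farthest from 0 by log2 ratio (up to 4), and the 3 rows nearest to Fasn, Acly and Acaca. Others are marked as named after their values were seen, or serve as markers and overlapping genes. Of 161 listed genes 6 were matched through RefSeq synonyms. The 9 alternatives were pseudocounts of 0.1 and 0.5 FPKM, no filter on low values, a mean of at least 5 FPKM, the same sum, centring, the same upper quartile, a 2-fold limit and protein-coding rows only. Calculations used scipy 1.17.1, numpy 2.4.6 and pandas 2.3.3 under Python 3.11.15, with figures from matplotlib 3.10.9.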

Additional observations from a re-analysis of the deposited data

How the results depend on the processing

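No paired analysis was possible because there is nothing to pair or leave out with 1 library in a group. The count of higher members stayed between 3 and 5 under the 9 alternatives, with Acly joining under the same sum of FPKM (log2 ratio 0.83). Acss2 lost its place at a mean of at least 5 FPKM, where it was not measured, at the 2-fold limit, with centring (0.37) and with the same upper quartile (0.42). Fasn, Mid1ip1 and Acaca were past the limit under all 9. The median log2 ratio of the measured members, 0.83, was 0.56 with no filter on low values, where it covers all 9 genes, and 0.58 with centring. The 8 higher genes of the 6 lists became 11 and 10 with pseudocounts of 0.1 and 0.5, and 26 with the same sum. They numbered 5 with centring or the same upper quartile, and 4 at 2-fold. Over all rows, 411 higher and 9 lower became 1024 and 20 with a pseudocount of 0.1, 224 and 5 at a mean of at least 5, 2604 and 1 with the same sum, 164 and 40 with centring, and 166 and 35 with equal upper quartiles. At 2-fold they were 117 and 0, and among protein-coding rows 213 and 3. Higher and lower rows numbered 592 and 14 with a pseudocount of 0.5, and 492 and 17 with no filter. Apart from the change in the genes covered or the limit itself, the cause was not tested. Depth limits the lowest genes, since a single read over 1 kb amounts to 0.00982 FPKM (DMSO) or 0.0133 FPKM (GW3965).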
